A study of Mus musculus with 28 samples.

Results

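Neuroblasts are the migrating precursors of new neurons that the subependymal zone (SEZ), the stem cell niche along the lateral ventricles, supplies to the olfactory bulb throughout adult life. Single cells of this zone in mice were profiled by SORT-seq, in which 1 cell is sorted into each well and its polyadenylated RNA is amplified by CEL-seq. Non-dividing neuroblasts were taken here as wells that held neuroblast transcripts but no transcript of 4 cell cycle genes. A well passed with at least 1000 transcript molecules outside the ERCC spike-in RNA. A passing well was chosen when Dcx, Stmn2, Tubb3, Sp9 and Dlx6os1 together made up at least 15 of 10000 transcripts, when Mki67, Top2a, Ube2c and Birc5 were all at 0, and when Snap25, Snhg11, Sncb and Nrsn1, genes of more mature neurons, summed to under 4 transcripts. This gave 114 wells of 1789 passing wells (6.37%). A further 285 wells met the neuroblast and neuron limits but held a transcript of at least 1 of the 4 cell cycle genes, and are called dividing neuroblasts below. The 2 kinds together are called neuroblast wells (399 wells).

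The series held 28 libraries of 96 wells each, 4 for each of 7 sorts of Bl/6 mice. Ki67-RFP cells were taken from Ki67tagRFP ki/ki mice, which carry a red reporter in Mki67, at 8 to 10 weeks of age. The tdTomato cells of days 2 and 60 came from Ki67iresCreER;Rosa-tdTomato mice, in which tamoxifen, given 1 time at 5 mg, marks cells that express Mki67 together with their progeny. The day-2 mice were 8 to 10 weeks old and the day-60 mice 16 to 19 weeks. Troy-GFP cells (Troy-GFPiresCreER +/ki), cells sorted on GLAST or EGF binding, and cells sorted with antibodies to Prom1 and CD24 came from mice of 8 to 10 weeks. A mixed day-60 sort, from mice of 8 to 19 weeks, combined tdTomato cells of the SEZ or olfactory bulb with O4+ cells of the oligodendrocyte lineage. The labels do not give the number of mice, and the 4 libraries of a sort fill the 384 wells of 1 plate, so p-values may measure technical spread only. Total transcripts per library lay between 77795 and 575257, and passing wells between 11 and 89. The study's own text counts about 1500 cells of high quality out of about 2500 sequenced. The table names of Ki67-RFP carry a flow cell name and those of day 2 carry none, so mouse line, labelling and run cannot be told apart between these sorts.

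As background, a neuroblast descends from a neural stem cell through a rapidly dividing progenitor, and many neuroblasts of the adult SEZ still divide while they migrate. Dcx encodes doublecortin, a microtubule-associated protein of migrating neurons. Stmn2 encodes a stathmin that acts on microtubules, Tubb3 a neuronal beta-tubulin, Sp9 a zinc finger factor of interneuron precursors, and Dlx6os1 a long noncoding RNA of the Dlx5 and Dlx6 locus. Most neuroblasts of this zone become interneurons that use GABA, which the glutamate decarboxylases Gad1 and Gad2 produce. Genes of the division cycle are switched on together, and many of their promoters carry CCAAT boxes, which the factor NF-Y binds, and the element TTTGAA, which is bound by the complexes DREAM and MuvB.

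Because the choice of the wells rests on cell cycle genes, the promoters of a cell cycle gene of the rule (Top2a, DNA topoisomerase 2 alpha), of a mitotic kinase outside the rule (Cdk1) and of a GABA gene that was higher in the chosen wells (Gad1) are shown. Each is the 250 bases before the RefSeq gene start in GRCm38.p6, written 5′ to 3′ on the gene's strand, at chr11:99024190-99024439 (minus strand) for Top2a, chr10:69352913-69353162 (minus strand) for Cdk1 and chr2:70561879-70562128 (plus strand) for Gad1. Capitals mark CCAAT and TTTGAA on either strand (ATTGG and TTCAAA on the other).
Top2a: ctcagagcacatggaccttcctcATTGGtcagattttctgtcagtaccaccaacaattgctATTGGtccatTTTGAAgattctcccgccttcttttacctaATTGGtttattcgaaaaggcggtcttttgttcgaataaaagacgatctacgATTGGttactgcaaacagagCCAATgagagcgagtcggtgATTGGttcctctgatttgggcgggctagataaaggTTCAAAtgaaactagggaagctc
Cdk1: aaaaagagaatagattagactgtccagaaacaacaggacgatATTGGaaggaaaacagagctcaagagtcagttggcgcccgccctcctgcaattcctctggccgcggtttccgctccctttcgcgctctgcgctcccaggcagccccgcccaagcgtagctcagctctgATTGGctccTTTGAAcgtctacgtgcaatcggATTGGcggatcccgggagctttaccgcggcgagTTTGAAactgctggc
Gad1: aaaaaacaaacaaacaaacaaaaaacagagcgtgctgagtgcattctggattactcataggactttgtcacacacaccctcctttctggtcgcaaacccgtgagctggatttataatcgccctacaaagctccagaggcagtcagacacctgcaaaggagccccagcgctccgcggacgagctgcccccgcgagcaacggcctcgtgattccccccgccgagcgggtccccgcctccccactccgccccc
The Top2a stretch held 6 CCAAT and 2 TTTGAA matches, the Cdk1 stretch 3 and 2, and the Gad1 stretch 0 of each. The RefSeq start used for Gad1 lies inside the longer gene span that GENCODE M21 gives (chr2:70553072-70602014), so this is the stretch before 1 of its starts. The GENCODE span of Cdk1 (chr10:69335146-69352938) likewise covers the last bases of its stretch, with the second TTTGAA. In Gad1 no match says only that these letters are not in this window.

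The label of the wells was set beside Nrep, Tiam2 and Cd24a, markers that were given with the rule but that the rule does not use. The gene lists were written with earlier results of these data known, so this is a description and not an independent check. Of the 114 wells, 99 had transcripts of all 3 and 112 had at least 1 of them. Nrep was found in 109 wells, Tiam2, an activator of the GTPase Rac, in 101, and Cd24a, a surface protein used to sort neuroblasts, in 112. In the 1390 passing wells outside the neuroblasts these genes were found in 20.1% (Nrep), 11.2% (Tiam2) and 25.2% (Cd24a) of wells. Dcx was found in 107 and Stmn2 in 111 of the 114 wells, which the rule itself favours. The score of the 5 rule genes ran from 16.2 to 163 per 10000 with a median of 83.6. Just inside the limit of 15 stood wells at 16.2, 18.4 and 19.8, and just outside it wells at 14.4, 14.1 and 13.6. Of the 114 wells, 57 held 0 transcripts of the 4 neuron genes.

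The 2 wells without any of these markers, which also lacked Dcx, were both from day-60 library 4 and carried genes of blood vessels. Their only score gene was Stmn2, with 6.07 and 5.05 transcripts, and they had the lowest scores (18.4 and 16.2). The summed level of 11 endothelial markers was 233 and 144 per 10000 in these wells, against a median of 0 and a highest value of 11.3 in the other 112. They are counted among the 114 because they meet the rule. The comparisons of day-2 with Ki67-RFP wells do not hold them. The day-60 well of library 1 held 64.5 transcripts of Ttr, the choroid plexus gene for transthyretin. The well of library 3 held 5.05 of Ttr and 20.8 of Meg3, a long noncoding RNA of neurons. In these wells of libraries 1 and 3, markers of quiescent stem cells and astrocytes summed to 55.6 and 81.3 per 10000. The highest sums were 23.8 in day-2 and 89.1 in Ki67-RFP non-dividing neuroblasts.

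The lists of markers of other cells differed in how many of their genes were at 0 in the chosen wells. All 9 ependymal and all 5 erythrocyte markers stood at 0, as did 8 of 9 pericyte and smooth muscle markers. Of the oligodendrocyte precursor markers 5 of 8 stood at 0, including Pdgfra and Cspg4, and of the microglial markers 5 of 12, including C1qa and P2ry12. Other lists were less empty, with 1 of 10 oligodendrocyte markers at 0 (49 wells held any), 2 of 11 endothelial markers (33 wells) and 3 of 6 choroid plexus markers (24 wells). Of 20 markers of quiescent stem cells and astrocytes, 4 were at 0 (Aqp4, Mt3, S100b and Aldh1l1). Their summed level lay between 7.11 and 8.91 per 10000 in the wells of the 4 day-2 libraries and between 4.86 and 43.7 in those of the Ki67-RFP libraries. The highest value, 43.7, belonged to Ki67-RFP library 4, and its part in the differences between these sorts was not tested.

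Non-dividing neuroblasts were found mainly 2 days after tamoxifen. The 4 day-2 libraries held 18, 17, 24 and 25 of them, 84 in all, and the Ki67-RFP libraries 4, 3, 7 and 5, 19 in all. All other sorts together held 11. Of these, 4 came from day 60, 1 from Prom1/CD24, and 2 each from GLAST/EGF, Troy-GFP and the mixed day-60 sort. As a share of passing wells they made up 36, 38.6, 37.5 and 40.3% of the day-2 libraries and 5.26, 3.75, 9.21 and 6.02% of the Ki67-RFP libraries. Every day-2 library thus lay above every Ki67-RFP library. The means were 38.1% ± 1.83 (SD, n = 4) and 6.06% ± 2.30 (SD, n = 4), a difference of 32.05 percentage points. The exact 2-sided permutation test gave p = 0.0286, the smallest value that 4 against 4 libraries allow, and 0.06 after Benjamini-Hochberg adjustment over the 21 pairs of sorts. Of the 21 pairs, 10 reached 0.0286 before adjustment and 0 passed 0.05 after it. The Ki67-RFP sort selects cells on a reporter in Mki67, 1 of the 4 genes that the rule asks to be at 0, so gate and rule bear on this share and the direction is not an independent finding.

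In the remaining sorts the wells were few, and their shares overlapped. Over all 4 libraries they made up 1.15% of passing wells at day 60 (exact 95% binomial interval 0.313 to 2.91, and 0.573% without the 2 wells that lack the markers), 0.926% in GLAST/EGF (0.112 to 3.30), 0.643% in Troy-GFP (0.0780 to 2.30), 0.637% in the mixed day-60 sort (0.0772 to 2.28) and 1.56% in Prom1/CD24 (0.0396 to 8.40). In 13 of the 28 libraries no such well was found, which, at 11 to 85 passing wells, allows shares of up to 3.53 to 27.3%. These intervals and limits cover counting error only. The Prom1/CD24 libraries were the shallowest. With the minimum lowered to 500 transcripts, 23 of their 188 wells (12.2%) met the rule, against 1 of 64 wells at 1000.

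Among neuroblast wells, the share without the 4 cell cycle genes also differed between the sorts. It was 42.9, 48.6, 53.3 and 52.1% in the day-2 libraries (49.2% ± 4.69, SD, n = 4) and 9.30, 6.00, 16.7 and 10.2% in the Ki67-RFP libraries (10.5% ± 4.46, SD, n = 4). The libraries did not overlap, and the difference was 38.7 percentage points (exact 2-sided permutation p = 0.0286, the smallest that 4 against 4 allow, 1 comparison). Here too the gate on the Mki67 reporter bears directly on the share. A transcript is missed more easily in a shallow well, so all wells were also thinned to 1000 transcripts. Then a mean of 66.1% of day-2 and 32.004% of Ki67-RFP neuroblast wells were without the 4 genes, and the libraries still did not overlap (exact permutation p = 0.0286).

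**Figure D1:**
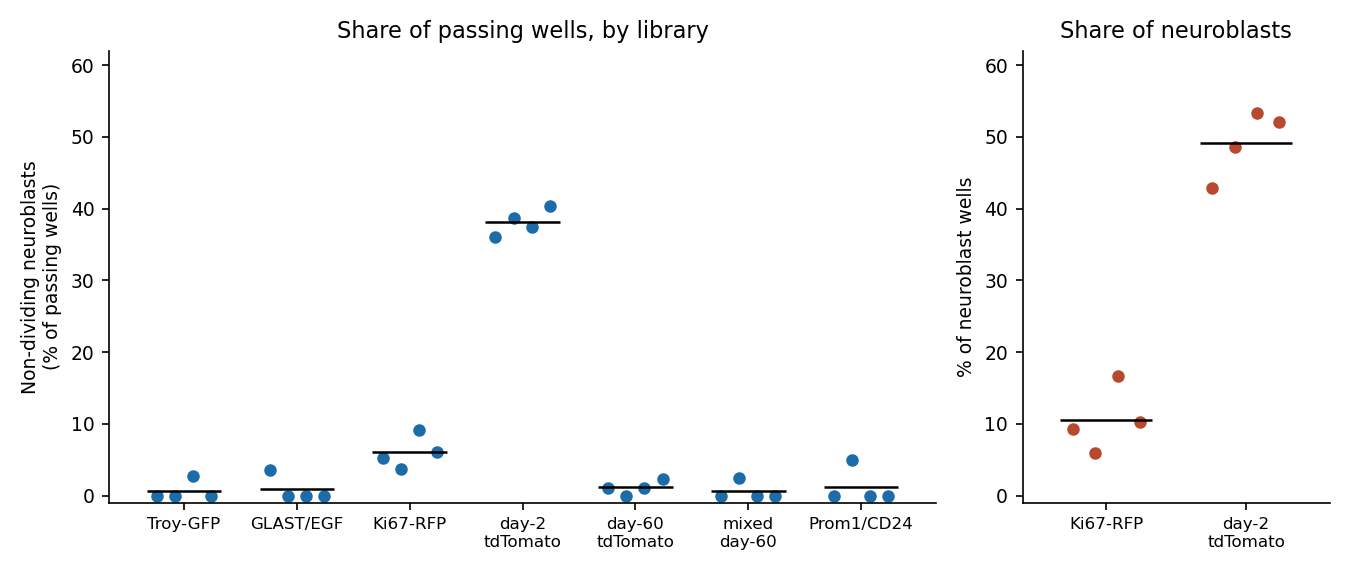
Share of non-dividing neuroblasts in each library (points, with horizontal lines for the mean of 4 libraries). Left, percent of passing wells in the 7 sorts: day-2 libraries lie between 36 and 40.3% and all other libraries at or below 9.21%. Right, percent of neuroblast wells, where day-2 libraries lie between 42.9 and 53.3% and Ki67-RFP libraries between 6.00 and 16.7%.

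Absence of the 4 genes did not mean absence of all cell cycle RNA. Of the 114 wells, 43 held a transcript of at least 1 of 10 further cell cycle genes. The share was 33.3% (28 of 84) at day 2 and 68.4% (13 of 19) in Ki67-RFP, against 83.7% and 95.8% of the dividing neuroblasts of these sorts. In 345 day-60 wells outside the neuroblasts, which were deeper (median 5035 against 2571 transcripts at day 2), 34.8% held such a transcript. Per 10000 transcripts the 10 genes summed to 1.75 in day-2 and 4.14 in Ki67-RFP non-dividing neuroblasts, against 0.806 in these day-60 wells and 37.9 and 30.6 in the dividing neuroblasts of the 2 sorts. S phase genes likewise summed to 18.8 in day-2 non-dividing neuroblasts and 4.48 in the day-60 wells. The list of G2 and mitosis genes summed to 129 and 21.4. It includes Stmn1, also counted as a cytoskeleton gene, and the tubulin Tubb5. These stood at 50.4 and 39.97 per 10000 in non-dividing wells (means of 6 day-2 and Ki67-RFP libraries). H2afz had 10.67 and the tubulin Tuba1b 9.97 there, against 0.313 for Cdk1 and 0.0248 for Ccnb1. The sum thus rests largely on Stmn1 and Tubb5 and is not read as remaining cell cycle RNA. Of the 285 dividing neuroblasts, 61 were counted as dividing through 1 observed molecule of the 4 genes. Widening the limit to all 14 genes left 71 non-dividing neuroblasts, 32.7% of neuroblast wells at day 2 and 3.36% in Ki67-RFP.

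Wells of non-dividing neuroblasts held fewer transcripts than those of dividing ones. The median was 2571 against 4401 transcripts at day 2 and 3073 against 5651 in Ki67-RFP. Genes detected per well had medians of 1479 against 2192 and 1681 against 2554. Spike-in transcripts had medians of 437 against 456 and 394 against 410, and transcripts per ERCC transcript were 6.14 against 10.4 and 8.93 against 13.6. The rule asks for missing transcripts and so bears on depth directly, and these differences carry no test.

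Between the sorts, the depth of the non-dividing neuroblasts did not separate. The mean of the library medians was 252 transcripts lower at day 2 than in the 2 Ki67-RFP libraries with at least 5 such wells (a difference of -252, exact permutation p = 0.4, 4 against 2 libraries, where 0.133 is the smallest p possible). Without Ki67-RFP library 3 the difference was 33.8. With all 4 Ki67-RFP libraries it was -597 (exact permutation p = 0.0857).

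**Figure D2:**
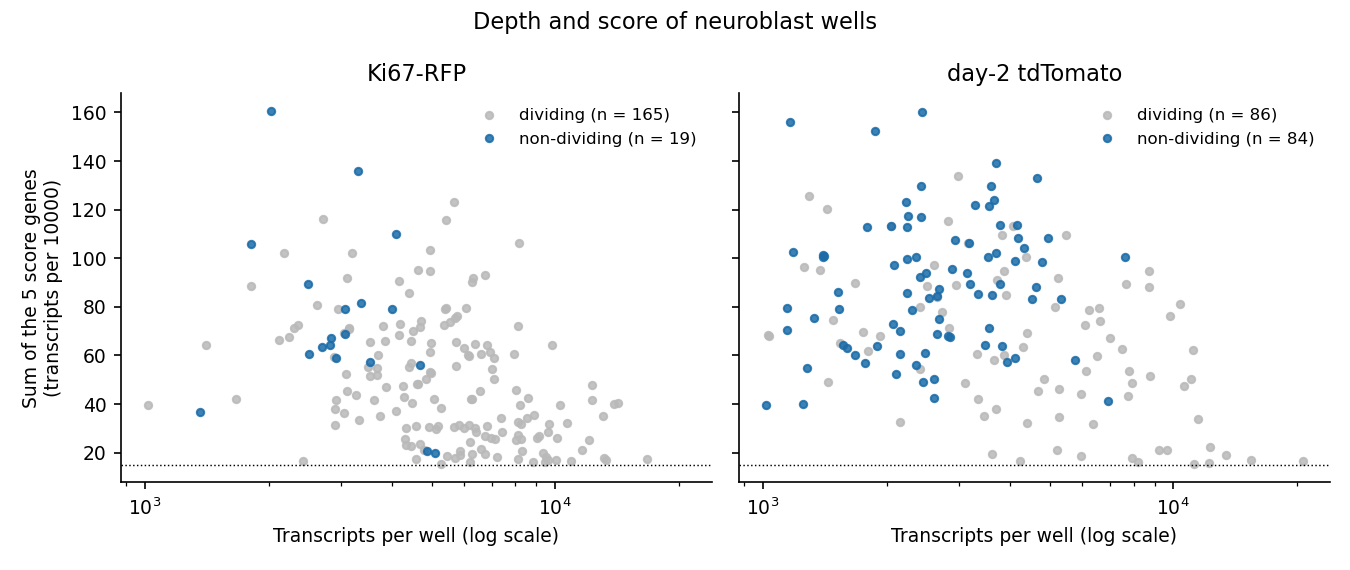
Transcripts per well (log scale) against the sum of the 5 score genes per 10000, for neuroblast wells of Ki67-RFP (left) and day 2 (right), with dividing wells in grey, non-dividing wells in blue and a dotted line at the limit of 15. Non-dividing wells lie toward lower depth, with a median of 2571 against 4401 transcripts at day 2.

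The level of the markers in the non-dividing neuroblasts was as follows, as transcripts per 10000 in the summed wells of a library. These values follow from the rule for Dcx, Stmn2, Tubb3, Sp9 and Dlx6os1, and all comparisons with other wells here are descriptions without a test. Dcx stood at 14.5, 13.7, 14.3 and 12.5 in the day-2 libraries and at 8.37, 8.78, 14.6 and 5.99 in the Ki67-RFP libraries. Dividing neuroblasts had 5.79 to 8.33 at day 2 and 6.67 to 7.27 in Ki67-RFP. All 4 day-2 libraries therefore had more Dcx in non-dividing than in dividing wells, while Ki67-RFP library 4 had less. Stmn2 stood at 31.1, 31.7, 37.999 and 41.6 at day 2 and at 16.3, 9.68, 22.7 and 23.4 in Ki67-RFP. Its day-2 dividing wells had 14.9 to 28.7, so the 2 kinds of day-2 well did not overlap.

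Among the markers outside the rule, Nrep, a neuronal regeneration-related protein, stood at 27.9, 30.4, 32.6 and 34.9 per 10000 at day 2 and at 13.3, 2.62, 8.35 and 15.5 in Ki67-RFP. Tiam2 (chr17:3326573-3531344, plus strand, GRCm38) stood at 10.7, 12.1, 14.7 and 14.9 at day 2 and at 6.26, 0.874, 7.02 and 5.13 in Ki67-RFP. Cd24a stood at 36.1, 26.3, 32.4 and 29.2 at day 2 and at 19.0, 19.5, 21.8 and 20.7 in Ki67-RFP. The test of these 3 genes between the sorts is given below. Of the other score genes, Tubb3 had means of 15.2 at day 2 and 19.6 in Ki67-RFP, and Sp9 was similar at 5.13 and 4.48.

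**Figure D3:**
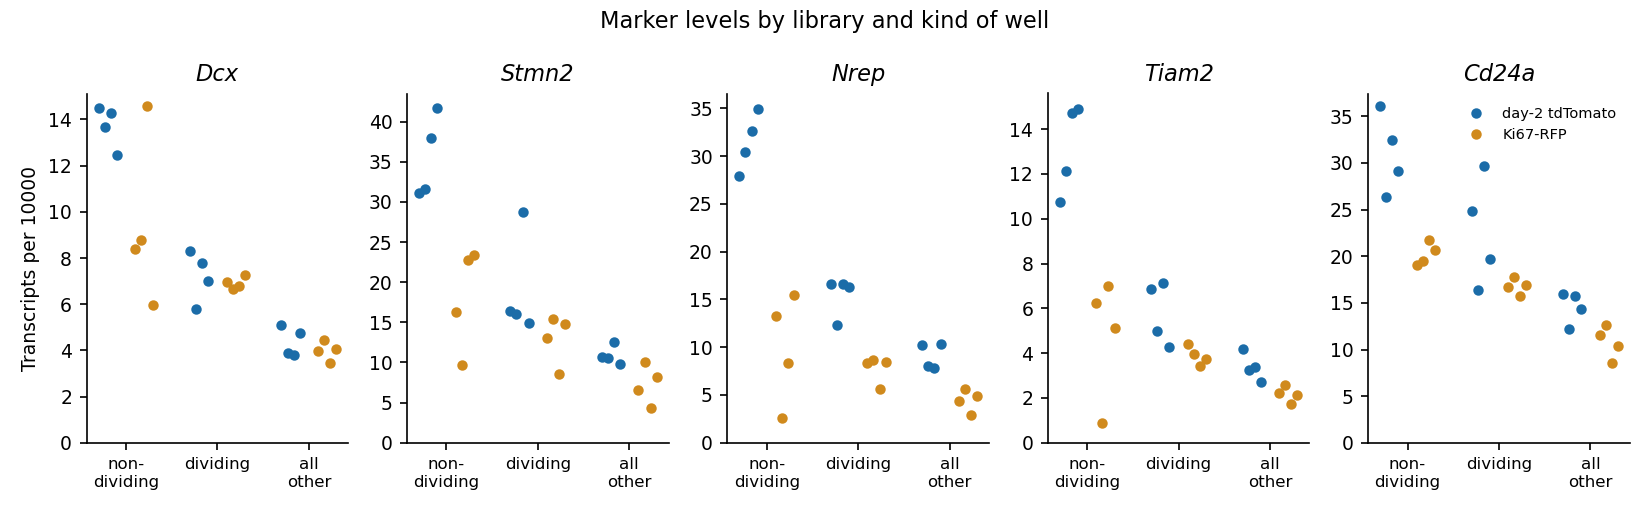
Transcripts per 10000 of 5 markers in summed wells of each day-2 (blue) and Ki67-RFP (orange) library, for non-dividing neuroblasts, dividing neuroblasts and all passing wells other than the non-dividing neuroblasts. Day-2 non-dividing wells have the highest levels of Nrep, at 27.9 to 34.9, against 12.3 to 16.6 in day-2 dividing wells.

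Non-dividing and dividing neuroblasts were compared within each of the 6 libraries that held at least 5 wells of both kinds (day-2 libraries 1 to 4, Ki67-RFP libraries 3 and 4), over 1118 genes with at least 2 transcripts per 10000 in either kind. Ratios are log2 with 0.5 transcripts added, and since the rule splits these wells they are given as a description. Of the 1118 genes, 154 (13.8%) were higher in the non-dividing wells of all 6 libraries and 134 (12%) lower. The median log2 ratio of all genes was 0.05. Gad1, Gad2 and a minority of the cytoskeleton and interneuron factor genes were higher in all 6, and most S phase and mitosis genes were lower.

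Among genes with at least 5 transcripts per 10000, the long noncoding RNA Meg3 (chr12:109541001-109571726, plus strand) had the highest mean ratio, 2.10 (range over the 6 libraries 1.47 to 3.11), with 11.4 against 2.68 per 10000. Gad1 (chr2:70553072-70602014, plus strand) followed among them at 1.17 (0.68 to 1.47), with 11.2 against 4.91 per 10000. Gad2 was also higher in all 6 libraries, at 0.88. Both decarboxylase genes thus lay on the higher side, against 13.8% of all genes.

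Of 21 measured genes of the neuronal cytoskeleton, 8 were higher in all 6 libraries and 1 lower, with a median of 0.32. The higher ones included the tubulins Tubb2a (1.06), Tubb2b (0.84) and Tuba1a (0.53), the stathmin Stmn4 (1.08) and Map1b (0.71), a microtubule-associated protein of growing axons. Stmn1, a stathmin shared with dividing cells, was the lower one at -0.26. Map2 (0.17) and Dpysl2 (-0.12) lay on both sides of 0 over the libraries. Dpysl5, a collapsin response mediator outside that list, had a mean of 1.10.

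Of 11 measured genes of migration, guidance and adhesion, 6 were higher in all 6 libraries and 0 lower (median 0.46). They were Plxna2, a semaphorin co-receptor (1.30), Tiam2 (1.07), St8sia2, an enzyme that adds polysialic acid to NCAM (1.01), Rnd3 (0.64), Ncam1 (0.46) and Cd24a (0.45). Epha4, an ephrin receptor, had -0.34 and was higher in 1 of 6.

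Interneuron transcription factors differed among themselves. Of 17 measured, 6 were higher in all 6 libraries and 0 lower, with a median of 0.34. They included Klf7 (1.21), Pbx3 (1.03), Etv1 (1.01), Sp8 (0.89) and Meis2 (0.84). Dlx1 (0.19) and Dlx2 (-0.16), homeobox genes that specify this lineage from the progenitor stage, were higher in 3 of 6 libraries each. Dlx1as, transcribed against Dlx1, had -0.66 and was higher in 1. Strand use in the counting is not given in the sources used here, so reads of Dlx1as and Dlx1 cannot be told apart, and the same holds for Dlx6os1 and its partner Dlx6.

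Of the 8 measured genes of mature neurons outside the rule, 5 were higher in all 6 libraries and 0 lower, with a median of 0.61. Besides Meg3 they were Rtn1, a reticulon of the neuronal endoplasmic reticulum (0.84), Ywhag (0.70), Celf4 (0.61) and Nrxn3 (0.56). Gria2, an AMPA receptor subunit, had 0.54 and was higher in 5 of 6.

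The cell cycle genes outside the rule were lower almost without exception. Of 12 measured S phase genes, 11 were lower in all 6 libraries (median -2.06), against 12% of all genes. The lowest was Rrm2, a ribonucleotide reductase subunit, at -4.06 with 0.614 against 9.30 per 10000, and the exception was Mcm7, of the replicative helicase, at -0.84. Pcna, the replication clamp, stood at 6.89, 2.55, 3.62 and 2.98 per 10000 in the day-2 non-dividing wells against 16.6, 12.5, 9.65 and 17.4 in the dividing wells. Of 32 measured G2 and mitosis genes, 30 were lower in all 6 (median -3.28). Cdk1, whose promoter is printed above, had -4.18 with 0.313 against 4.71 per 10000. The 2 exceptions were Cks1b (-2.99) and Tubb5 (-0.26), each higher in 1 library. Hmgb2, a chromatin protein of cycling cells, had -3.41 with 1.38 against 13.7 per 10000.

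Progenitor and cell cycle exit genes did not move as blocks. Of 7 measured genes of activated stem cells and progenitors, 1 was higher in all 6 libraries (Sox4, 0.73) and 0 lower. Ccnd2, cyclin D2, was level at 0.01 (higher in 4 of 6), with 37.7 against 37.9 per 10000, and Sox11, a factor of immature neurons, at -0.02. Insm1, a factor of dividing neuron progenitors, had -1.66 and was lower in 5 of 6. Of 6 measured exit regulators, 1 was higher in all 6, the noncoding RNA Gas5 (0.63). The Cdk inhibitor gene Cdkn1b had 0.28 (higher in 4) and the antiproliferative gene Btg1 0.72 (higher in 5).

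**Figure D4:**
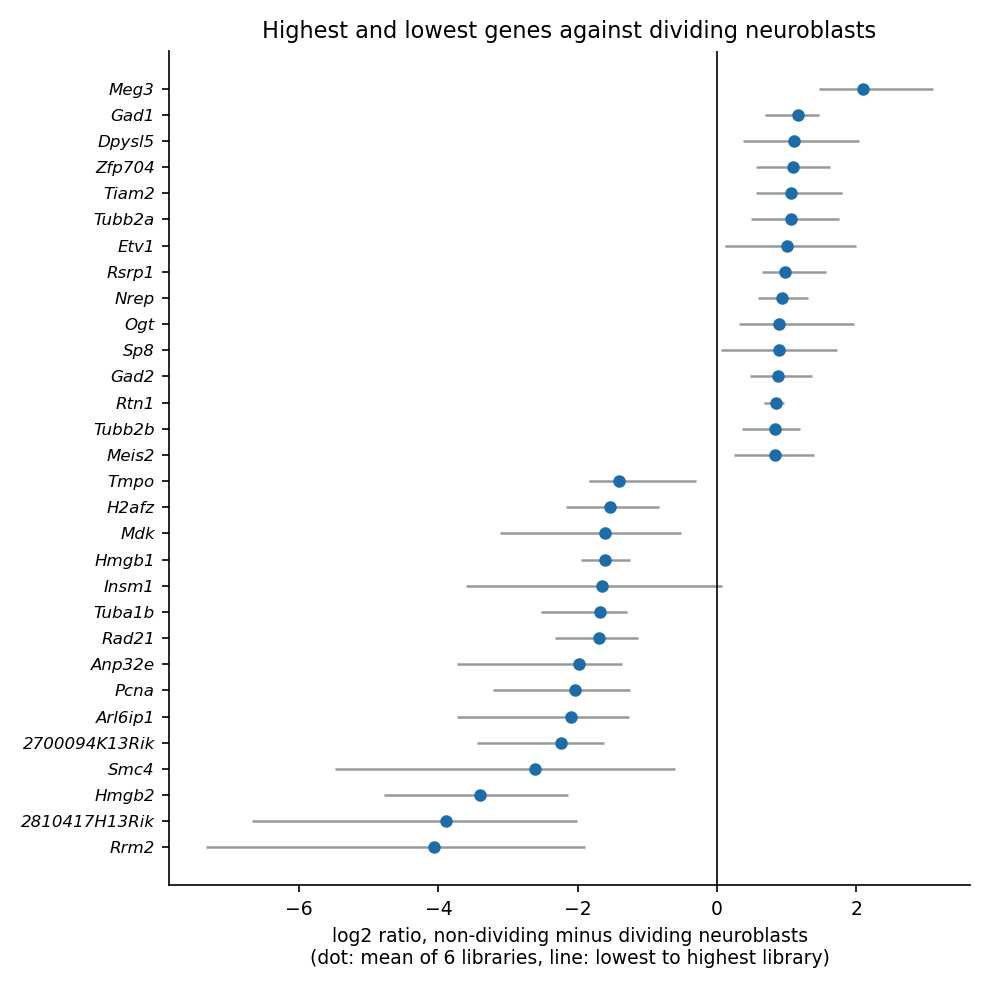
Log2 ratio of transcripts in non-dividing over dividing neuroblasts for the 15 highest and 15 lowest genes with at least 5 transcripts per 10000 in 1 of the kinds. Dots are means of 6 libraries and lines run from the lowest to the highest library. Meg3 stands highest at 2.10 and Rrm2 lowest at -4.06, and the line of Insm1 crosses 0.

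Since the 2 kinds of well differ in depth, the ratios were repeated at day 2 in wells of 1500 to 4000 transcripts only (59 non-dividing wells, median 2490, and 30 dividing wells, median 2900), a range chosen after the data had been seen. Meg3, Gad1, Tiam2 and Nrep were higher in 4 of 4 libraries, with smaller ratios. Meg3 had 0.81 against 1.99 in all day-2 wells, Gad1 0.59 against 1.29, Tiam2 0.64 against 1.19 and Nrep 0.38 against 1.03. Cdk1 had -3.92 against -5.68 and Hmgb2 -3.54 against -3.61, lower in 4 of 4 libraries. Pcna did not keep its size, with -0.42 against -1.85 and 2 of 4 libraries on each side of 0.

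Compared with all other passing wells of the same 6 libraries, the order was alike. Of 1146 measured genes, 245 (21.4%) were higher in the non-dividing neuroblasts in all 6 libraries and 177 (15.4%) lower. Meg3 (2.97), Gad1 (2.00), Tiam2 (1.87) and Sp8 (1.76) were among the highest, and all 8 measured mature neuron genes were higher in all 6. As the wells were chosen on this contrast, nothing is read from these counts.

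The promoters of the genes that were lower in non-dividing wells were compared with other promoters for 4 short motifs in the 250 bases before the gene start. RefSeq entries were matched for 108 of the 134 lower genes, 108 of the 154 higher genes and 837 of the 1118 measured genes, beside 27025 promoters in all. CCAAT (either strand) was present in 67.6% of lower and 35.2% of higher genes, against 40.3% of measured genes and 34.5% of all promoters. TTTGAA was present in 20.4% of lower and 6.48% of higher genes, against 11.1% and 16.3%. The E2F motif TTTGGCGC was present in 4.63% of lower and 0.926% of higher genes, against 1.43% and 0.437%. TAATTA, a homeobox motif, was present in 0 of the lower genes and 2.78% of the higher genes, against 1.67% and 4.90%. Each motif was searched on its own. Of the printed stretches, Cdk1 belongs to the lower genes and Gad1 to the higher ones, while Top2a is a gene of the rule, of whose 4 cell cycle genes 3 held CCAAT and 3 TTTGAA. The rule splits the wells on cell cycle genes, so the lower genes hold 11 of 12 measured S phase and 30 of 32 G2 and mitosis genes. The shares of motifs follow from that choice of wells and are not an independent finding. A match is a description of letters and not a bound site.

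The design allows 1 comparison of genes that the rule did not use, that of non-dividing neuroblasts found 2 days after tamoxifen with those found among cells that carry the Mki67 reporter. Transcripts were summed over the wells of each library, and libraries with at least 5 such wells were compared, 4 at day 2 against Ki67-RFP libraries 3 and 4, with limma voom over 862 genes. Nrep, Gad1, Btg1 and Rtn1 were higher at day 2, and Sox4, Ccnd2, Actb, Malat1 and Tuba1a were lower, and of these Sox4, Actb and Malat1 kept their call in every other setting that tested them. In all, 28 genes (3.25%) passed an adjusted p of 0.05, 10 higher (1.16%) and 18 lower (2.09%) at day 2, and 138 had an unadjusted p under 0.05. The 10 higher genes include Zfp871 and Gm1821, which passed the filter through the day-2 libraries alone. The median log2 fold of all genes was 0.11. The Ki67-RFP side rests on 12 wells, and leaving out 1 of its libraries changed the count to 206 (without library 3) or 93 (without library 4). Leaving out day-2 library 1 gave 49. In the 5 wells of Ki67-RFP library 4, markers of quiescent stem cells and astrocytes summed to 16.0 to 89.1 per 10000. The highest sum in a day-2 well was 23.8, and the part of this in the calls was not tested.

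A second fit took in libraries with at least 3 wells, which gives 4 against 4 libraries, and was chosen after the data had been seen. It called 70 of 611 genes (11.5%), 19 higher (3.11%) and 51 lower (8.35%), with a median log2 fold of 0.01. All 25 of the 28 genes that were also tested there were called in the same direction. The second fit holds every library of the first, so this is not a separate repeat. Values of both fits are given below as log2 ± standard error with the Benjamini-Hochberg adjusted p of limma voom. Folds in the dividing neuroblasts of both sorts stand beside most of the called genes described below. Whether a fold differed between the 2 kinds of well was not tested, so no fold is shown to be particular to the non-dividing wells. Counts of called genes in a list stand against 3.25% of all genes in the first fit and 11.5% in the second. Levels are transcripts per 1000000 (CPM) after trimmed mean scaling.

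Nrep stood at 2730, 3057, 3289 and 3494 CPM in the day-2 libraries and at 844 and 1546 in Ki67-RFP libraries 3 and 4. The day-2 libraries were all higher, by 1.53 ± 0.27 (limma voom, adjusted p = 0.000997), and by 1.70 ± 0.29 in the fit of 4 against 4 (limma voom, adjusted p = 0.00104). In the dividing neuroblasts of the same sorts the fold was 0.94. The call was lost without Ki67-RFP library 3 (0.99, limma voom, adjusted p = 0.059). The wells of Ki67-RFP library 2, which enter only the second fit, had the lowest level at 279 CPM.

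Gad1 stood at 1425, 1242, 1376 and 1487 CPM at day 2 and at 579 and 597 in Ki67-RFP. The groups did not overlap, and the fold was 1.19 ± 0.33 (limma voom, adjusted p = 0.0439) or 1.48 ± 0.36 with all 4 Ki67-RFP libraries (limma voom, adjusted p = 0.00995), and 0.74 in dividing neuroblasts. The call was lost in 5 of 28 other settings, among them leaving out Ki67-RFP library 4 or day-2 library 4 and thinning, with adjusted p up to 0.374 (limma voom). Of the 3 tested genes of the GABA list, 1 was called, Gad1. Gad2 had 0.30 (limma voom, adjusted p = 0.675) with overlapping libraries. The summed level of the GABA list was 31.5 to 37.2 per 10000 in the day-2 libraries and 6.24 to 27.4 in the 4 Ki67-RFP libraries.

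Btg1 stood at 1296, 1222, 1552 and 1411 CPM at day 2 against 399 and 940, a fold of 1.38 ± 0.35 (limma voom, adjusted p = 0.0271), with 0.65 in dividing neuroblasts. Without Ki67-RFP library 3 it fell to 0.49 and was not called (limma voom, adjusted p = 0.371). It was the 1 gene called among 6 tested exit regulators. Cdkn1b had -0.50 and Gas5 0.87 (limma voom, adjusted p = 0.5 and 0.399). Rtn1 stood at 2498, 2887, 3586 and 2913 CPM against 1566 and 1543, a fold of 0.91 ± 0.24 (limma voom, adjusted p = 0.0339), and was the 1 gene called of 8 mature neuron genes. Its fold in dividing neuroblasts was 0.76. The call was lost in 4 of 28 other settings, without either Ki67-RFP library, at 2000 transcripts and after thinning, where the fold was 0.39 (limma voom, adjusted p = 0.669). Meg3 differed within Ki67-RFP, with 266 and 1631 CPM against 1009 to 1482 at day 2, and was not called at 1.31 (limma voom, adjusted p = 0.1).

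Further genes on the higher side encode RNA-binding, chromatin and cytoskeletal proteins. Hnrnpa2b1, a splicing factor, had 1.95 ± 0.43 (limma voom, adjusted p = 0.0118), with 1.37 in dividing neuroblasts, and lost its call in 2 settings. H3f3a, which encodes histone H3.3, rose by 0.98 ± 0.16, from 4278 and 3633 CPM in Ki67-RFP to 7625, 8133, 8057 and 8035 at day 2 (limma voom, adjusted p = 0.000678). Tmsb10, an actin-binding thymosin, had 0.74 and lost its call in 4 settings, and Rpl32, a ribosomal protein, had 1.02 and lost it in 3. In dividing neuroblasts H3f3a had 0.57, Tmsb10 0.49 and Rpl32 0.81. Zfp871 had 58.2 transcripts at day 2 and 0 in the Ki67-RFP wells, which makes it at least 2.79-fold higher against a floor of 3 transcripts over the sort. The remaining gene, Gm1821, had 435 transcripts against 1, but belongs to a group of near-identical copies and is uncertain. The filter asks for at least 4 libraries, which the 4 day-2 libraries can meet alone and the 2 Ki67-RFP libraries cannot. Zfp871 and Gm1821 entered the test through their day-2 levels only, so nothing is read from their calls.

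On the lower side, Sox4 (chr13:28948919-28953713, minus strand), a factor of progenitors and early neurons, stood at 191, 234, 615 and 374 CPM at day 2 and at 1523 and 943 in Ki67-RFP. All day-2 libraries were below both Ki67-RFP libraries, by a log2 of -1.93 ± 0.36 (limma voom, adjusted p = 0.00271), with -2.30 in dividing neuroblasts. Ccnd2 stood at 3173, 2560, 2882 and 3305 CPM against 6129 and 4603, a log2 of -0.88 ± 0.17 (limma voom, adjusted p = 0.00374), with -0.99 in dividing neuroblasts. Without Ki67-RFP library 3 it had -0.64 and was not called (limma voom, adjusted p = 0.068). These were the 2 genes called among 5 tested progenitor genes, whose median was -0.79. The summed level of that list was 65.5 to 75.2 per 10000 in the day-2 libraries and 101 to 162 in the 4 Ki67-RFP libraries, without overlap. In dividing neuroblasts it was 75.0 to 80.8 against 131 to 147. Ccnd2 and Sox11 carry much of the sum in non-dividing wells. In the fit of 4 against 4 their mean levels were 2856 and 2180 CPM at day 2 and 6170 and 3975 in Ki67-RFP.

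Sox11 and Dlx2 depended on which libraries were taken. Sox11 had -0.56 with 2 Ki67-RFP libraries (limma voom, adjusted p = 0.125) and -0.86 with 4 (limma voom, adjusted p = 0.00104). Dlx2 had -0.70 (limma voom, adjusted p = 0.111) and -0.77 (limma voom, adjusted p = 0.00995). In dividing neuroblasts Sox11 had -0.98 and Dlx2 -0.13. Of 14 tested interneuron transcription factors and 9 tested migration genes, 0 were called in the first fit. Of 12 and 8 tested in the second, 1 (Dlx2, lower) and 0 were called, against 11.5% of all genes.

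Of 21 tested cytoskeleton genes, 2 were higher at day 2 (Nrep and Tmsb10) and 2 lower, against 1.16% and 2.09% of all genes. Tuba1a, the main alpha-tubulin of young neurons, stood at 4946, 5336, 6750 and 6717 CPM against 8687 and 9308, a log2 of -0.61 ± 0.16 (limma voom, adjusted p = 0.0337), and -0.61 in dividing neuroblasts. Its call was lost in 9 of 28 other settings, with a fold of -0.11 without a filter (limma voom, adjusted p = 0.746), and its libraries overlapped in the fit of 4 against 4. Marcksl1 had -0.998 (limma voom, adjusted p = 0.0258) and lost its call in 6 settings, among them leaving out Ki67-RFP library 3 (-0.88, limma voom, adjusted p = 0.103). The fold of Marcksl1 in dividing neuroblasts was -0.86. Tuba1a was thus lower at day 2 than in Ki67-RFP but higher in non-dividing than in dividing wells of every library compared.

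Actb (chr5:142903115-142906754, minus strand), which encodes beta-actin, had the smallest adjusted p. It stood at 1424, 1203, 1901 and 1904 CPM at day 2 and at 6196 and 6427 in Ki67-RFP, a log2 of -1.97 ± 0.19 (limma voom, adjusted p = 3.84e-07). Its fold in dividing neuroblasts was -1.93. The nuclear noncoding RNA Malat1 had -1.71 ± 0.21 (limma voom, adjusted p = 1.23e-05) and -1.78 in dividing neuroblasts. Eef2, the translation elongation factor, had -1.77 ± 0.26 and -1.14, and the ribosomal protein gene Rpsa -1.56 ± 0.26 and -1.30. The 2 kinds of well come from the same libraries. Of 72 tested ribosomal protein genes, 1 was higher and 3 were lower, with a median of 0.09, against 1.16% and 2.09% of all genes. Actb, Eef2, Rpsa, Rps2, Rpl32, H3f3a and Hnrnpa2b1 have processed copies elsewhere in the genome, so their counts are uncertain to the degree that reads were split.

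Of the markers outside the rule, Cd24a had 0.51 (limma voom, adjusted p = 0.19) and Tiam2 0.96 (limma voom, adjusted p = 0.129). Neither was called. The score genes chose the wells and are given without a test: Dcx had a fold of 0.34, Stmn2 0.61 and Tubb3 -0.61.

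**Figure D5:**
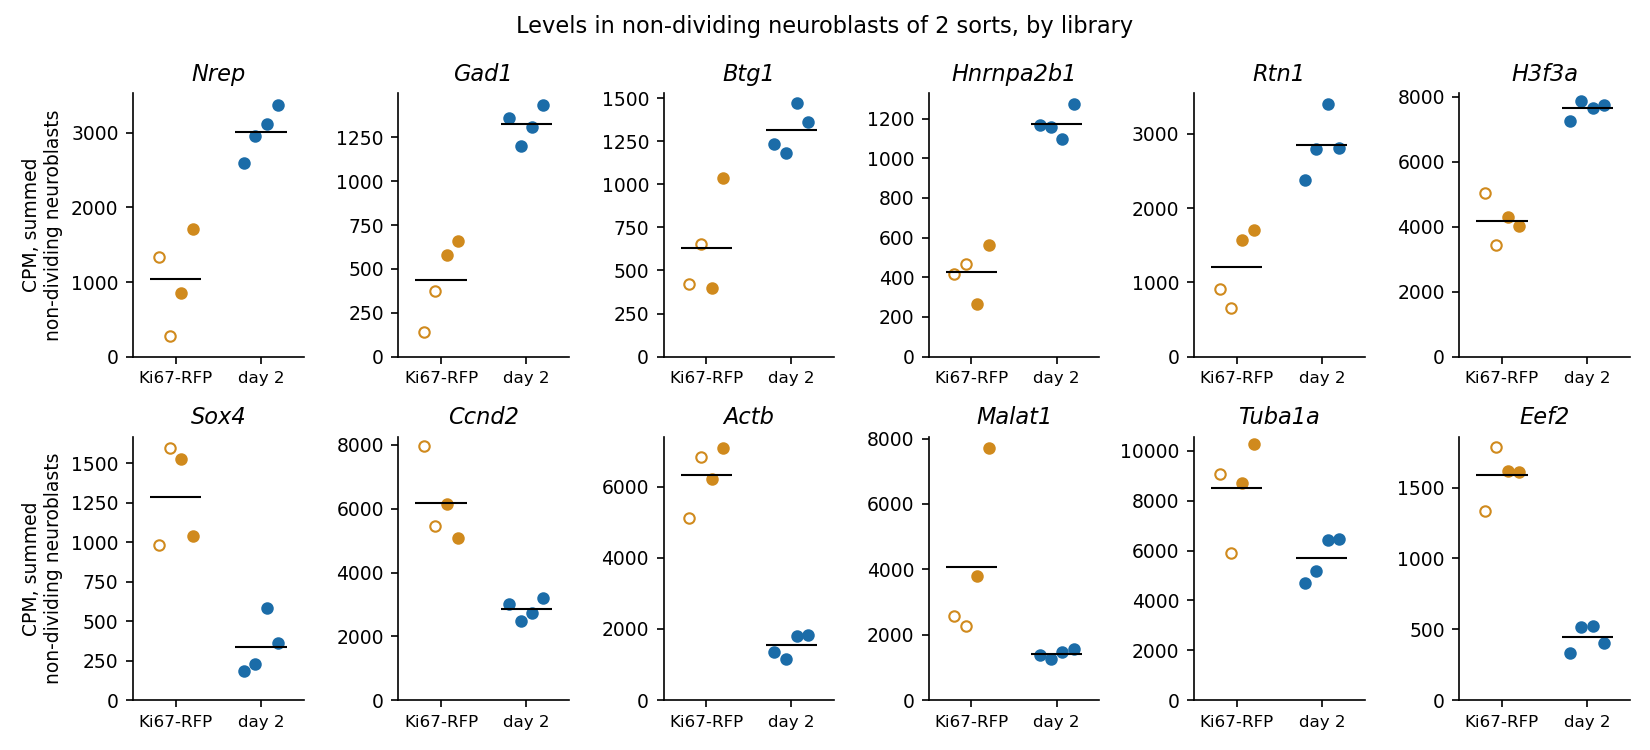
CPM of 12 genes in summed non-dividing neuroblasts of each Ki67-RFP and day-2 library, in the fit with at least 3 wells per library. Open circles are Ki67-RFP libraries 1 and 2, with under 5 wells, and lines are means of 4 libraries. The means of Nrep, Gad1, Btg1, Hnrnpa2b1, Rtn1 and H3f3a lie higher at day 2 and those of Sox4, Ccnd2, Actb, Malat1, Tuba1a and Eef2 lower, and the libraries of Tuba1a overlap.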

How the data were processed

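The tables that the authors deposited give, per gene and well, an estimate of transcript molecules (unit recorded as other, a corrected count). The submitters' processing notes name BWA 0.6.2-r126 and the build mm10. Of 4735115 values above 0, 4735106 equalled the collision correction of a whole number of barcodes out of 256, within 1e-06. The tables held 17690 gene rows and 87 ERCC rows, and ERCC rows stayed out of totals and tests. Symbols on more than 1 chromosome (7) carry the chromosome. With 1 cell sorted into a well, doublets were not called. All libraries use the same 96 well barcodes.

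The wells and gene lists were chosen with earlier results of these data known. Wells were summed per library, and the library was the replicate. Genes outside the 13 rule genes were tested with limma voom 3.58.1 in R 4.3.3, on trimmed mean scaling, if they reached about 10 transcripts (scaled to the median library) in at least 4 libraries and 15 in all. Adjusted p is Benjamini-Hochberg over all tested genes. Rule genes were fitted for their values only, without a test. Tests of shares were exact, 2-sided permutation tests in Python 3.11.15 with scipy 1.17.1. The fit was tested on simulated data. Named genes were the up to 12 highest and 12 lowest called genes, then up to 4 of each list by adjusted p, and the rule and marker genes. Symbols of near-copies were not named by this rule. Against dividing neuroblasts, the 15 highest genes, members of the lists and, chosen after their values were seen, the 15 lowest were named. Gene positions come from GENCODE M21 (GRCm38) and promoters from RefSeq (GRCm38.p6). Same-numbered libraries did not deviate together (correlations 0.039, 0.092, -0.099 and -0.043), and the main fits do not pair them. The Ki67-RFP sums rest on few wells, so this cannot exclude a pairing. Alternatives covered scaling, filters, thinning, the limits of the rule, a replicate block and leaving out libraries. Values of some list genes are not reported here.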

Additional observations from a re-analysis of the deposited data

Results flagged for a closer look

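In 4 sorts 1 library stood apart from its 3 partners in the share of passing wells that were non-dividing neuroblasts, because it was the only one of the sort that held any. The share was 2.78% in Troy-GFP library 3 (2 wells), 3.64% in GLAST/EGF library 1 (2 wells), 2.47% in mixed day-60 library 2 (2 wells) and 5% in Prom1/CD24 library 2 (1 well). Of 67 groups of 4 libraries examined for a library far from the others, 4 were picked out, and chance picks about 1 in 20. Each value rests on 1 or 2 wells.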

How the results depend on the processing

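The count of genes called between day-2 and Ki67-RFP non-dividing neuroblasts (28) moved most. It was 70 with at least 3 wells per library, 86 there with a replicate block, 44 with a filter on 2 libraries, 113 with limma-trend (82 higher), 103 at a minimum of 2000 transcripts (77 higher, 1 Ki67-RFP library left), 232 without a filter (150 higher of 10506), 67 at a score minimum of 10 and 9 after thinning (of 229). Leaving out 1 library gave 26 to 206, and 45, 48, 50, 55, 59, 60, 62 and 64 with at least 3 wells per library, where a lone Ki67-RFP library is assumed to vary like the others. A minimum of 500 transcripts gave 33, the replicate block 30, scaling by totals 28 and by upper quartile 27, and a score minimum of 25 gave 28. The share higher was 35.7% of calls, against 72.6% with limma-trend, 74.8% at 2000 transcripts, 64.7% without a filter and 18.2% with a filter on 2 libraries. Without a filter the median fold of all genes was -0.26. The causes were not tested. For the 24 named genes that were called, 523 of 595 values under other settings stayed past the threshold in the same direction, 72 no longer passed and 0 reversed. Of 30 named genes not called, 12 changed sign in some setting, Meg3 and Ncam1 among them.

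The difference in share of passing wells passed at a minimum of 500 transcripts (35.004 percentage points, adjusted p = 0.0429, exact permutation). Its unadjusted p was the smallest that 4 against 4 libraries allow at both minima, so the change comes from the other pairs of sorts. Under the other limits, after thinning and with a library left out, the adjusted p lay between 0.0545 and 0.12 (exact permutation). With a replicate block the share of neuroblast wells still differed by 38.7 points, but 4 pairs cannot give an exact permutation p below 0.125. Leaving out a library gave 37.2 to 40.8 points with 0.0571 as the smallest possible exact permutation p, and 31.3 to 33.1 points for passing wells. The depth difference turned to 33.8 transcripts and 58 genes without Ki67-RFP library 3, with ranges over left-out libraries of -538 to 33.8 and -192 to 58.

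The comparison of the mixed day-60 sort with day 2 was not run, as that sort held 2 such wells, and the wider cell cycle limit left no Ki67-RFP library with 5 wells for the gene test.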

Other observations

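Among the 84 day-2 wells, thinned to 1000 transcripts, 323 genes averaged at least 0.5 transcripts, and their variance over wells divided by the mean had a median of 1.13. Lrrc17, which encodes a secreted leucine-rich repeat protein, was the most uneven at 5.00, with transcripts in 27 of the 84 wells and up to 11 in 1 well. Rmi2 (3.18), the lysyl oxidase Loxl2 (3.07), Slc23a1 (2.53), the guidance receptor Flrt2 (2.24), the AMPA receptor subunit Gria2 (2.13) and the growth factor receptor Igf1r (2.06) followed. Ccnd2, which differed between the sorts, also varied among day-2 wells (1.85). All 8 are among the 10 most uneven of the 323 genes.

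Rn45s, the precursor of ribosomal RNA, made up 0.00710, 0.00212, 0.0115 and 0.0119% of transcripts of the non-dividing neuroblasts in the day-2 libraries and 1.604, 4.27, 2.06 and 5.01% in the Ki67-RFP libraries. It is a repeated gene and was singled out after its values were seen. In the dividing neuroblasts of the same sorts its log2 fold, day 2 over Ki67-RFP, was -8.11. It moves with the split between the sorts, as do the mouse line and the run, and its part in the other differences was not tested.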
